A study of Mus musculus with 8 samples.

Results

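The genes described here are 5 ligands and 5 receptors of the fibroblast growth factor (FGF) family: Fgf1, Fgf2, Fgf3, Fgf4, Fgf15, Fgfr1, Fgfr2, Fgfr3, Fgfr4 and Fgfrl1. All 10 were found by symbol among the 55414 genes of the deposited count table. They were chosen by measured values, with results of these data known: the counts of the chromosome 7 cluster of Fgf3, Fgf4 and Fgf15 were higher in tumor of vehicle-treated mice than in naive brain. The contrast of vehicle tumor with vehicle naive brain is therefore given for the 10 genes as a description, with no test.

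The study sequenced RNA of a mouse model of supratentorial ependymoma, a tumor of the cerebral hemispheres, after treatment with the kinase inhibitor MRX-2843, which acts on MERTK and FLT3. Its 8 RNA-seq libraries form 4 groups of 2: MRX-2843 tumor, vehicle tumor, MRX-2843 naive brain and vehicle naive brain. The labels give every library, naive brain included, the genotype ZFTA-RELA fusion. Their cell line field holds the drug's name, vehicle libraries included, and names no line. Mice with a tumor seen by MRI had been randomised to 50 mg/kg MRX-2843 or vehicle, given by mouth each day for 5 days, and were killed 1 h after the last dose. Strain, age, the promoter that drives the fusion and the mouse each naive sample came from are not given in the sources used here. Nothing says whether the 2 libraries of a group are separate mice, so p-values measure the spread between these libraries, which may be technical.

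FGF ligands are secreted, bind heparan sulfate at the cell surface and activate receptor tyrosine kinases that signal through RAS and MAP kinase. That signal induces its own brakes, the Sprouty, Spred and Dusp6 genes, and the ETS factors Etv4 and Etv5. In brain, Fgfr3 is known from astrocytes and neural progenitors and Fgfr2 from the oligodendrocyte lineage, whereas Fgf3, Fgf4 and Fgf15 are mainly embryonic ligands.

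Fgf3, Fgf4 and Fgf15 lie side by side, all on the plus strand, between positions 144838083 and 144900953 of mouse chromosome 7 (GRCm38, GENCODE M21), a span of 62871 bases. Fgf3 runs from 144838083 to 144844436, Fgf4 from 144847367 to 144865243 and Fgf15 from 144896531 to 144900953. RefSeq promoters (GRCm38.p6) were at hand for 7 of the 10 genes. The stretches shown belong to Fgf3 and Fgf4, whose levels moved together, and to Fgfrl1, the gene with the highest level per length in vehicle tumor. They are on the plus strand and end at the RefSeq start, except that the Fgf3 stretch stops 17 bases short of it, where a GENCODE exon begins. Fgf3 is shown for chr7:144838362-144838594, Fgf4 for chr7:144861136-144861385 and Fgfrl1 for chr5:108693979-108694228. Capitals mark GGGCGG, the core of an Sp1 site.
Fgf3: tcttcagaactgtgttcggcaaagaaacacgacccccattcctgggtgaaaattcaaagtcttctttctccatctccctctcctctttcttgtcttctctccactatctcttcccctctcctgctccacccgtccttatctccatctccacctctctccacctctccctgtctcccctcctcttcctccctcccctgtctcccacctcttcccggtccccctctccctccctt
Fgf4: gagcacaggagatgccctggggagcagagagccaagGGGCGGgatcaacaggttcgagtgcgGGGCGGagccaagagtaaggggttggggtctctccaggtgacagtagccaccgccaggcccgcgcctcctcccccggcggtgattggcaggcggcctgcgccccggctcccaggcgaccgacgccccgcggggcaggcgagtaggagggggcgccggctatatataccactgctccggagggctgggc
Fgfrl1: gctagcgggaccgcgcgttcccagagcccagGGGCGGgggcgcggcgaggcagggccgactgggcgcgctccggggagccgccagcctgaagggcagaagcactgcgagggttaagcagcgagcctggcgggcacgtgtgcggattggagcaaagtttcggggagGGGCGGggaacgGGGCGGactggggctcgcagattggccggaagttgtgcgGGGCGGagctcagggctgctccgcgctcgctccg

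Over the 250 bases before the RefSeq start, both strands were searched for GGGCGG, the TATA box TATAAA, the AP-1 site TGANTCA and the NF-kB motif, the last because RELA is an NF-kB subunit. None of the 4 motifs was found for Fgf3. Fgf4 held 2 copies of GGGCGG and Fgfrl1 held 4, with none of the other motifs, as spelled here, in either. The Fgf4 stretch does hold TATATATA shortly before its start, a TATA-like string that the search for TATAAA does not match. Of the 7 genes, Fgfr4 alone held the NF-kB motif, as 2 overlapping matches 133 to 143 bases before its start. Among all 32851 mouse promoters of that length, GGGCGG was present in 32.7%, TATAAA in 12.4%, the NF-kB motif in 7.3% and TGANTCA in 6.7%. A match is a string of letters, not a measured site. The stretches lie inside the GENCODE gene spans, whose first exons start further upstream.

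Library totals ran from 51150569 to 112938462 counts, and levels are given as CPM, the counts of a gene scaled to a common library size, with TMM factors. The libraries labelled MRX-2843 tumor stood close to naive brain. Over 17754 genes their log2 CPM correlated at 0.977 to 0.979 with vehicle naive brain and at 0.710 to 0.715 with vehicle tumor. Zfta was at 54.3 and 57.0 CPM in MRX-2843 tumor and 287 and 290 CPM in vehicle tumor, against 32.7 to 49.6 CPM in the naive libraries. Mitochondrially encoded genes took 17.3 and 16.4% of counts in MRX-2843 tumor and 3.26 and 3.37% in vehicle tumor. Xist, the X-inactivation RNA, ran from 526 to 795 CPM in MRX-2843 libraries and from 0.408 to 2.88 CPM in vehicle libraries, and the Y-linked Ddx3y had no counts in MRX-2843 libraries. Treatment cannot be told apart from this difference, nor from an unexplained number in the column names, 909 for MRX-2843 and 914 or 915 for vehicle.

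The cluster ligands were high in vehicle tumor and low or without counts in the other 3 groups. Fgf3, a ligand of the developing inner ear and tail, had 2.18 and 1.48 CPM in MRX-2843 tumor and 269 and 273 CPM in vehicle tumor. In naive brain it had 2.32 and 3.09 CPM after MRX-2843 and 0.517 and 0.149 CPM after vehicle. The vehicle tumor libraries were far above the other 6, vehicle naive brain was lowest, and the 4 groups did not overlap. By group CPM, Fgf3 was 806-fold higher in vehicle tumor than in vehicle naive brain (log2 fold change 9.65 ± 0.22, SE). Without vehicle naive brain library 1 this log2 fold change of Fgf3 was 10.82.

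Fgf4, which maintains proliferating cells of the early embryo, had 3118 and 3496 counts in the vehicle tumor libraries, or 36.1 and 39.7 CPM. The other 6 libraries had 0 counts, where a count of 0 allows up to 3 counts, 0.0281 to 0.0615 CPM. Fgf4 was thus at least 1730-fold higher in vehicle tumor than in vehicle naive brain, with 3 counts over the group as the floor. Fgf15, the mouse counterpart of human FGF19, a gut hormone of bile acid control that is also made in embryonic brain, had 10474 and 11587 counts in vehicle tumor, or 121 and 132 CPM. It had 16 and 6 counts in MRX-2843 naive brain and 0 in MRX-2843 tumor and vehicle naive brain. Fgf15 was at least 5760-fold higher in vehicle tumor than in vehicle naive brain. Fgf4 and Fgf15 passed the filter on low counts only through the vehicle tumor libraries. GENCODE M21 places 761 exonic bases of the antisense gene Gm26793 over Fgf15, and this gene had 18.2 and 16.1 CPM in vehicle tumor. The strand setting of the counting is not given, so reads of Fgf15 and Gm26793 cannot be told apart there.

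The ubiquitous ligands were present in every library. Fgf2, the basic FGF of glia and vessels, had 7.10 and 6.59 CPM in MRX-2843 tumor and 18.9 and 22.1 CPM in vehicle tumor. In naive brain it had 5.48 and 6.28 CPM after MRX-2843 and 5.76 and 4.57 CPM after vehicle. Vehicle tumor lay above the other libraries (log2 fold change 1.99 ± 0.18 against vehicle naive brain). Fgf1, the acidic FGF of neurons, had 10.6 and 11.2 CPM in MRX-2843 tumor and 15.5 and 19.1 CPM in vehicle tumor. Its naive levels were 13.4 and 12.6 CPM after MRX-2843 and 9.40 and 9.86 CPM after vehicle. The vehicle tumor libraries were again highest, by less than for Fgf2 (0.85 ± 0.15 against vehicle naive brain). Fgf2 shares 640 exonic bases with Nudt6 on the opposite strand.

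**Figure D1:**
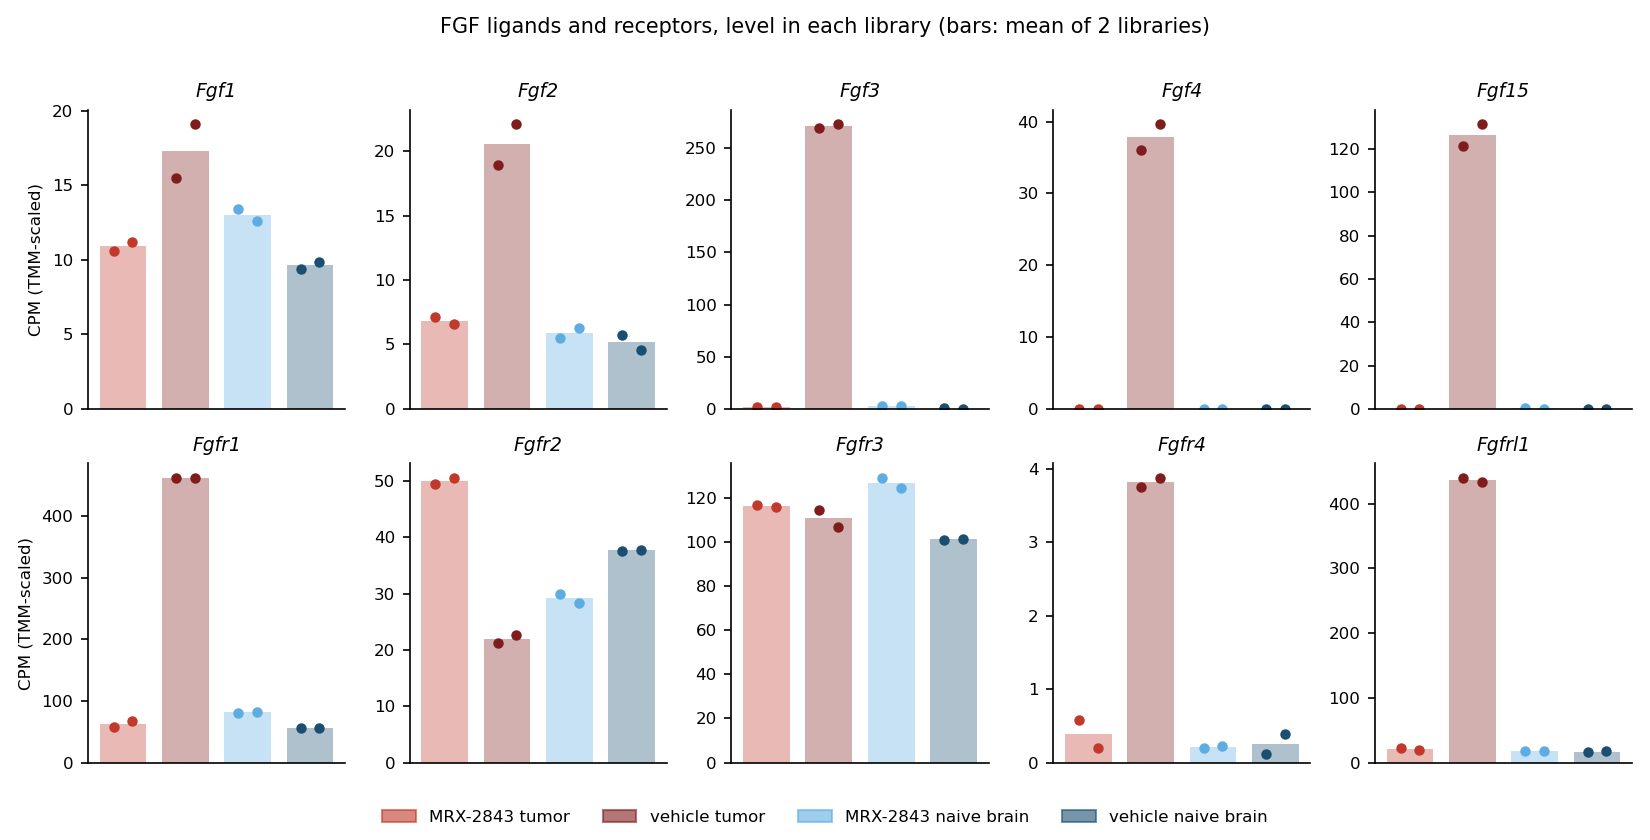
Level of each FGF ligand and receptor in CPM (TMM-scaled, y axis from 0, a scale of its own per gene) in the 2 libraries (points) and their mean (bars) of MRX-2843 tumor, vehicle tumor, MRX-2843 naive brain and vehicle naive brain, from left to right. Fgf3, Fgf4, Fgf15, Fgfr1, Fgfr4 and Fgfrl1 stand high in vehicle tumor, Fgfr2 is lowest there and Fgfr3 has similar levels in the 4 groups.

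Among the receptors, Fgfr1, a kinase receptor of neurons, progenitors and mesenchyme, had 58.5 and 66.9 CPM in MRX-2843 tumor and 462 and 463 CPM in vehicle tumor. Its naive levels were 80.5 and 82.7 CPM after MRX-2843 and 56.0 and 56.5 CPM after vehicle. The vehicle tumor libraries were far above the rest, 8.23-fold above vehicle naive brain by group CPM (log2 fold change 3.04 ± 0.07). Fgfrl1, a receptor without a kinase domain that binds FGF ligands, had 22.17 and 19.95 CPM in MRX-2843 tumor and 440 and 433 CPM in vehicle tumor. In naive brain it had 18.3 and 18.2 CPM after MRX-2843 and 16.1 and 17.5 CPM after vehicle. Fgfrl1 was 26.1-fold higher in vehicle tumor than in vehicle naive brain (4.70 ± 0.08).

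Fgfr4, the FGF15 and FGF19 receptor of liver and muscle, was low throughout, with 3.76 and 3.88 CPM in vehicle tumor and 8 to 33 counts in each other library. It was 15.4-fold higher in vehicle tumor than in vehicle naive brain (3.92 ± 0.67). Without vehicle naive brain library 2 this log2 fold change was 5.04, since that library held 26 of the group's 34 counts. Fgfr2 had the opposite pattern, with 49.5 and 50.6 CPM in MRX-2843 tumor and 21.2 and 22.6 CPM in vehicle tumor. Naive brain had 30.0 and 28.3 CPM after MRX-2843 and 37.6 and 37.7 CPM after vehicle. Vehicle tumor was the lowest group for Fgfr2 (-0.78 ± 0.09 against vehicle naive brain). Fgfr3 differed least, with 117 and 116 CPM in MRX-2843 tumor, 115 and 107 CPM in vehicle tumor, 129 and 125 CPM in MRX-2843 naive brain and 101 CPM in both vehicle naive libraries (0.13 ± 0.06 for vehicle tumor against vehicle naive brain). Antisense genes overlap exons of Fgfr1 (Gm16159, 164 bases) and Fgfr3 (G630022F23Rik, 998 bases), and Ctbp2 shares 314 bases with Fgfr2 on one strand.

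Scaled to exon length, as CPM per kb, Fgfrl1 had the highest level in vehicle tumor at 157 ± 1.84 (SD, n = 2), followed by Fgf3 at 117 ± 1.27, Fgfr1 at 46.8 ± 0.0283 and Fgf15 at 41.3 ± 2.40. Fgfr3 at 15.5 ± 0.764 and Fgf4 at 11.8 ± 0.799 came next, ahead of Fgf1 at 3.17 ± 0.470, Fgf2 at 3.03 ± 0.333, Fgfr2 at 2.12 ± 0.0940 and Fgfr4 at 1.08 ± 0.0240. Of the neighbours in this order, Fgf1 and Fgf2 did not differ beyond their spread. In vehicle naive brain the order began with Fgfr3 at 14.1 ± 0.0283 CPM per kb, Fgfrl1 at 6.02 ± 0.360 and Fgfr1 at 5.69 ± 0.0346. Fgfrl1 and Fgfr1 did not differ there beyond their spread.

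The makeup of the kinase receptors, as shares of the summed CPM per kb of Fgfr1 to Fgfr4, was set apart in vehicle tumor. Fgfr1 made up 21.7 and 24.3% of that sum in MRX-2843 tumor and 71 and 72% in vehicle tumor. In naive brain Fgfr1 made up 28 and 29.3% after MRX-2843 and 24.2% in both vehicle libraries. The share of Fgfr3 was 60.0 and 57.9% in MRX-2843 tumor and 24.3 and 23.0% in vehicle tumor, against 59.9 to 61.9% in naive brain. The level of Fgfr3 itself hardly differed, so its smaller share in vehicle tumor goes with the larger sum, 66.0 and 65.1 CPM per kb against 23.5 to 29.1 CPM per kb in the other 6 libraries. Fgfr2 held 17.6% in both MRX-2843 tumor libraries, a larger share than in any other library, and 3.12 and 3.36% in vehicle tumor.

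**Figure D2:**
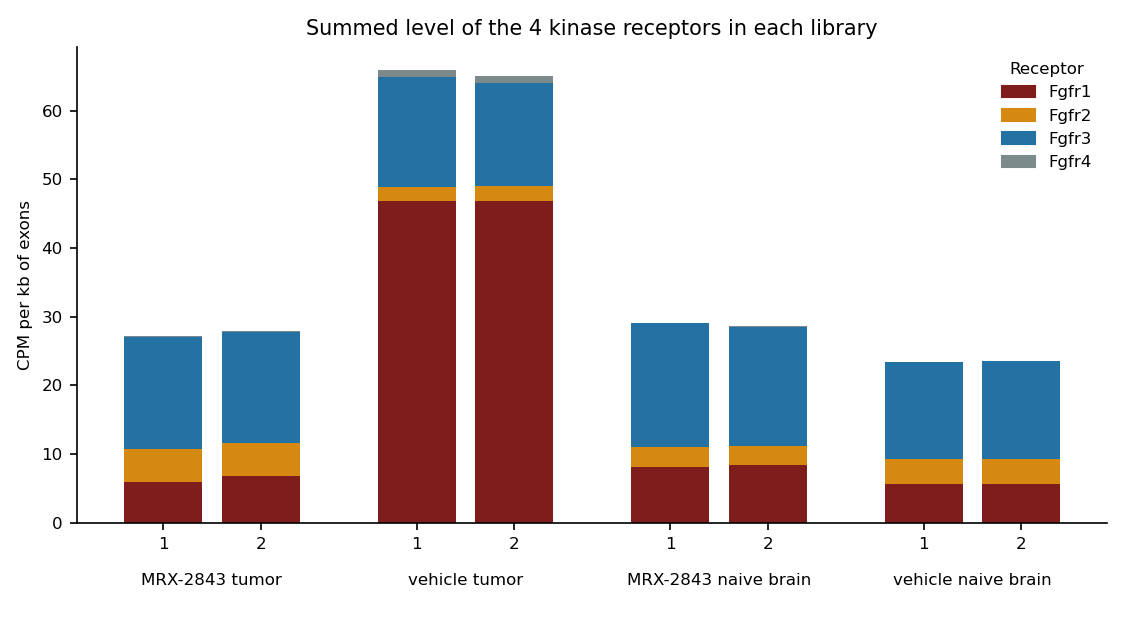
Level of Fgfr1, Fgfr2, Fgfr3 and Fgfr4 in CPM per kb of exons (y axis), stacked for each of the 8 libraries (x axis, library 1 and 2 of each group). The summed level is 66.0 and 65.1 in the vehicle tumor libraries, mostly Fgfr1, and 23.5 to 29.1 in the other libraries, mostly Fgfr3.

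Cell type markers moved with these levels. The 9 mural cell and fibroblast markers summed to 181 to 197 CPM in MRX-2843 tumor, 10500 to 10700 in vehicle tumor, 181 to 182 in MRX-2843 naive brain and 187 to 188 in vehicle naive brain. Most of the vehicle tumor sum was collagen, with means of 5520 CPM for Col1a1, 2330 for Col1a2 and 1750 for Col3a1. Pdgfrb and Cspg4 had means of 132 and 178 CPM in vehicle tumor against 24.4 and 18.6 in vehicle naive brain. The mural genes Rgs5 and Acta2 had 116 and 11.9 CPM against 93.2 and 10.4. Against vehicle naive brain 8 of the 9 were higher and none lower, beside 29.3% and 30.8% of all genes. The 10 microglia and macrophage markers summed to 360 to 365 CPM in MRX-2843 tumor and 2520 in vehicle tumor, against 269 to 299 in naive brain. The 9 endothelial markers summed to 180 to 189 CPM in MRX-2843 tumor and 666 to 670 in vehicle tumor, against 171 to 185 in naive brain. Oligodendrocyte markers, 10 in all, summed to 14600 to 15100 CPM in MRX-2843 tumor and 535 to 555 in vehicle tumor, against 7640 to 7780 in naive brain. Fgfr2 and this sum shared their highest group and their lowest. The 12 neuron markers summed to 4450 to 4470 CPM in MRX-2843 tumor, 536 to 542 in vehicle tumor, 4410 to 4510 in MRX-2843 naive brain and 7510 to 7640 in vehicle naive brain. Astrocyte markers (10 genes) summed to 3700 to 3770 CPM in MRX-2843 tumor and 4220 to 4290 in vehicle tumor, against 2980 to 3230 in naive brain. In vehicle tumor against vehicle naive brain 4 astrocyte markers were higher and 5 lower, with a mean of 2710 against 143 CPM for Gfap and 252 against 1470 CPM for Slc1a2. The 7 oligodendrocyte precursor markers summed to 538 to 559 CPM in MRX-2843 tumor and 1170 to 1190 in vehicle tumor, against 345 to 421 in naive brain. Of these 7, 6 were higher in vehicle tumor than in vehicle naive brain and Gpr17 was lower, with means of 12 against 30.8 CPM. No marker was without counts in a group, and the part of these cell types in the FGF values was not tested. In such bulk tissue, fewer cells of a type and less RNA per cell cannot be told apart.

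Set against vehicle tumor, MRX-2843 tumor was lower for ligands and receptors alike except Fgfr2 and Fgfr3. The vehicle tumor libraries are those that chose the cluster ligands, so Fgf3, Fgf4 and Fgf15 were not tested here, and they are also shared with the contrast described above. Fgf3 was 149-fold lower in MRX-2843 tumor by group CPM, Fgf4 at least 1470-fold lower and Fgf15 at least 4890-fold lower. Of the other 7 genes, 5 were lower and 1 higher by the quasi-likelihood test of edgeR, with Benjamini-Hochberg adjustment over 24356 genes and a threshold of 0.05. Over all genes this test called 60.4% (29.8% lower and 30.6% higher), so a call in this comparison is common. The libraries of the 2 groups did not overlap for the 6 called genes, nor for Fgfr3, which passed no test. The share of all genes without overlap was not counted, so this lack of overlap is a description only.

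Fgfrl1 fell by 4.37 ± 0.07 on the log2 scale in MRX-2843 tumor, a 20.8-fold difference by group CPM (edgeR adjusted p = 6.5e-16). Fgfr1 fell by 2.88 ± 0.07 (adjusted p = 2e-14) to levels within the range of the naive libraries. Fgfr4 fell by 3.28 ± 0.65 (adjusted p = 0.00047) on 45 counts in MRX-2843 tumor against 667 in vehicle tumor. Among the ligands, Fgf2 fell by 1.58 ± 0.18 (adjusted p = 1.4e-06) and Fgf1 by 0.66 ± 0.15 (adjusted p = 0.0011). Fgfr2 rose by 1.19 ± 0.09 (adjusted p = 1.1e-08). Fgfr3 had a log2 fold change of 0.07 ± 0.06 (adjusted p = 0.33), which turned to -0.15 (adjusted p = 0.04) when library totals replaced TMM. In this comparison that scaling moves the overall median by -0.22 (log2) and gives 6412 genes higher and 8647 lower, against 7450 and 7265 with TMM.

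Between MRX-2843 tumor and MRX-2843 naive brain, 2 FGF genes were higher and 1 was lower of the 8 other than Fgf4 and Fgf15, beside 24.4% of all genes called (12.4% higher and 11.9% lower). Fgf4 and Fgf15 are given without a test here, having entered the fit only through vehicle tumor. Fgfr2 rose by 0.78 ± 0.09 (edgeR adjusted p = 1e-05), and the summed oligodendrocyte markers were higher there too. The Fgfr2 levels of the 2 groups did not overlap, a description only, as the share of all genes was not counted. Fgfr1 fell by 0.38 ± 0.06 (adjusted p = 0.00049). Fgf15 had 0 counts in MRX-2843 tumor and 22 in MRX-2843 naive brain, at least 5.48-fold lower.

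Fgfrl1 was higher by 0.21 ± 0.07 (adjusted p = 0.049) in MRX-2843 tumor than in MRX-2843 naive brain, a call that ended with only these 2 groups in the fit (adjusted p = 0.25). It also ended when MRX-2843 tumor library 1 was left out (adjusted p = 0.37), without either MRX-2843 naive library (0.099 and 0.15) and without any 1 vehicle library (0.056 to 0.059). Fgf3 had a log2 fold change of -0.61 ± 0.22 (adjusted p = 0.057), with 2.18 and 1.48 CPM in MRX-2843 tumor and 2.32 and 3.09 CPM in MRX-2843 naive brain. It passed when library 1 of MRX-2843 tumor or of MRX-2843 naive brain was left out (adjusted p = 0.013 for each), without any 1 vehicle library (0.011 to 0.015) and with no filter (4.9e-05). Fgf1 at -0.25, Fgf2 at 0.22, Fgfr3 at -0.13 and Fgfr4 at 0.85 ± 0.67 did not pass (adjusted p = 0.25, 0.45, 0.16 and 0.43), and Fgf4 had no counts in either group.

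In naive brain after MRX-2843 against vehicle naive brain, Fgfr1, Fgfr3 and Fgf1 were called higher and Fgfr2 lower. Fgf2, Fgfr4 and Fgfrl1 were not called. Of all genes, 21.5% were called (9.78% higher and 11.7% lower). Fgf3 is left out of these calls. The vehicle naive libraries were part of its choice, so its value is a description here, with no test. Fgf3 was higher by 3.05 ± 0.30 on the log2 scale, on 113 and 330 counts in MRX-2843 naive brain against 36 and 10 in vehicle naive brain. By group CPM this was an 8.47-fold difference. Fgf15, with 22 counts in MRX-2843 naive brain and 0 in vehicle naive brain, was higher by at least 6.45-fold. Of the counts between 1 and 20 in each library, 77.8 to 81.8% were even numbers, as were both counts of Fgf15, and the part of this in low counts was not tested. Floors of 3 counts cover counting error only.

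Fgfr1 rose by 0.54 ± 0.06 (edgeR adjusted p = 2.3e-05) and Fgfr3 by 0.33 ± 0.06 (adjusted p = 0.00093) in MRX-2843 naive brain. For both, the libraries of the 2 groups did not overlap, a description only, as the share of all genes was not counted. Fgfr2 fell by 0.37 ± 0.09 (adjusted p = 0.0055), a call lost without MRX-2843 naive library 2 (adjusted p = 0.051). Fgf1 rose by 0.43 ± 0.15 (adjusted p = 0.048), but not with DESeq2 (adjusted p = 0.078), not without any 1 library of these 2 groups (0.096 to 0.21), and not without MRX-2843 tumor library 2 (0.055). Fgf2 at 0.19, Fgfr4 at -0.21 and Fgfrl1 at 0.12 did not pass (adjusted p = 0.53, 0.90 and 0.27).

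The genes around the cluster did not all follow it. Of the 28 other genes annotated within 1 Mb, 17 passed the filter, and 11 of these were higher and 3 lower in vehicle tumor than in vehicle naive brain (median log2 fold change 0.96). Among the 17 are Gm26793 and Gm39119, antisense genes over exons of Fgf15, which passed the filter only through vehicle tumor. Faddos, antisense to Fadd, also passed through vehicle tumor, with 22 counts in each of its libraries and 0 to 14 in the others. Counts and medians of the 17 are therefore a description. Of 10 named neighbours 9 passed, and 8 were higher and 1 lower in that comparison, where edgeR called 60.1% of all genes (29.3% higher and 30.8% lower). The median of the 9 was 1.97, against -0.03 over all genes tested. The named list leaves out Bc1, Smim38 and Dhcr7 and was chosen with earlier results of these data known. Its counts and medians are therefore a description too. Ccnd1, the cyclin D1 gene 29.0 kb beyond the cluster, had 254 and 252 CPM in vehicle tumor and 21.6 and 18.5 CPM in vehicle naive brain (3.66 ± 0.09, adjusted p = 2.7e-14). Next to it, LTO1, an iron-sulfur assembly factor 14.1 kb from the cluster, rose by 0.96 ± 0.13 (adjusted p = 1.4e-05). The spans of LTO1 and Ccnd1 overlap on opposite strands, so their reads may be split wrongly.

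Between these and the cluster lies Bc1, a short neuronal RNA gene 13.5 kb beyond it, which fell by 3.95 ± 0.22 (adjusted p = 5.6e-10). On the other side, Ano1, a chloride channel gene 86.1 kb away, rose by 1.97 ± 0.26 and Fadd, a death receptor adaptor at 255.6 kb, by 2.31 ± 0.26 (adjusted p = 7.7e-06 and 2e-06). Cttn, which binds actin, and Ppfia1, a liprin, rose by only 0.37 ± 0.06 and 0.31 ± 0.08 (adjusted p = 0.00012 and 0.0034), the call of Ppfia1 being lost without vehicle tumor library 2 (0.066). Shank2, a scaffold of excitatory synapses 413.6 kb away, had 6.39 and 4.54 CPM in vehicle tumor and 149 and 147 CPM in vehicle naive brain and fell by 4.76 ± 0.11 (adjusted p = 2.1e-14). Beyond Ccnd1, Tpcn2, a lysosomal channel gene 285.6 kb from the cluster, rose by 2.26 ± 0.18 and Mrgprf, an orphan receptor gene at 399.9 kb, by 3.35 ± 0.35 (adjusted p = 2.6e-08 and 8e-07), and Smim38, at 304.9 kb, fell by 2.52 ± 0.67 (adjusted p = 0.0043). Dhcr7, of cholesterol synthesis, 989.7 kb away on the side of Shank2, had a log2 fold change of -0.01 ± 0.08 (adjusted p = 0.91). Mrgprd did not pass the filter.

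In MRX-2843 tumor against vehicle tumor, 9 of the 17 genes were lower and 4 higher (median -1.08), beside 29.8% and 30.6% of all genes. The 17 again hold Gm26793, Gm39119 and Faddos, so this too is a description. Of the 9 named neighbours 7 were lower and 2 higher (median -1.62, against 0.03 over all genes tested), again as a description. Ccnd1 fell by 4.02 ± 0.09 (edgeR adjusted p = 1.4e-14), to 16.6 and 14.5 CPM in MRX-2843 tumor. Mrgprf fell by 6.42 ± 0.45 (adjusted p = 7.1e-09), on 4 and 14 counts in MRX-2843 tumor. Fadd fell by 2.54 ± 0.27, Tpcn2 by 1.77 ± 0.17, Ano1 by 1.62 ± 0.25, LTO1 by 0.96 ± 0.13 and Cttn by 0.49 ± 0.06 (adjusted p from 3.9e-07 to 5.3e-05). Shank2 rose by 4.89 ± 0.11, Bc1 by 3.59 ± 0.22 and Smim38 by 2.00 ± 0.66 (adjusted p = 1.8e-14, 1.8e-09 and 0.017). Ppfia1 rose by 0.21 ± 0.08 (adjusted p = 0.034), a call that ended without filter, without either MRX-2843 tumor library, without vehicle tumor library 1 and without either vehicle naive library (adjusted p = 0.054 to 0.36), and that with library totals was -0.02 (0.86).

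**Figure D3:**
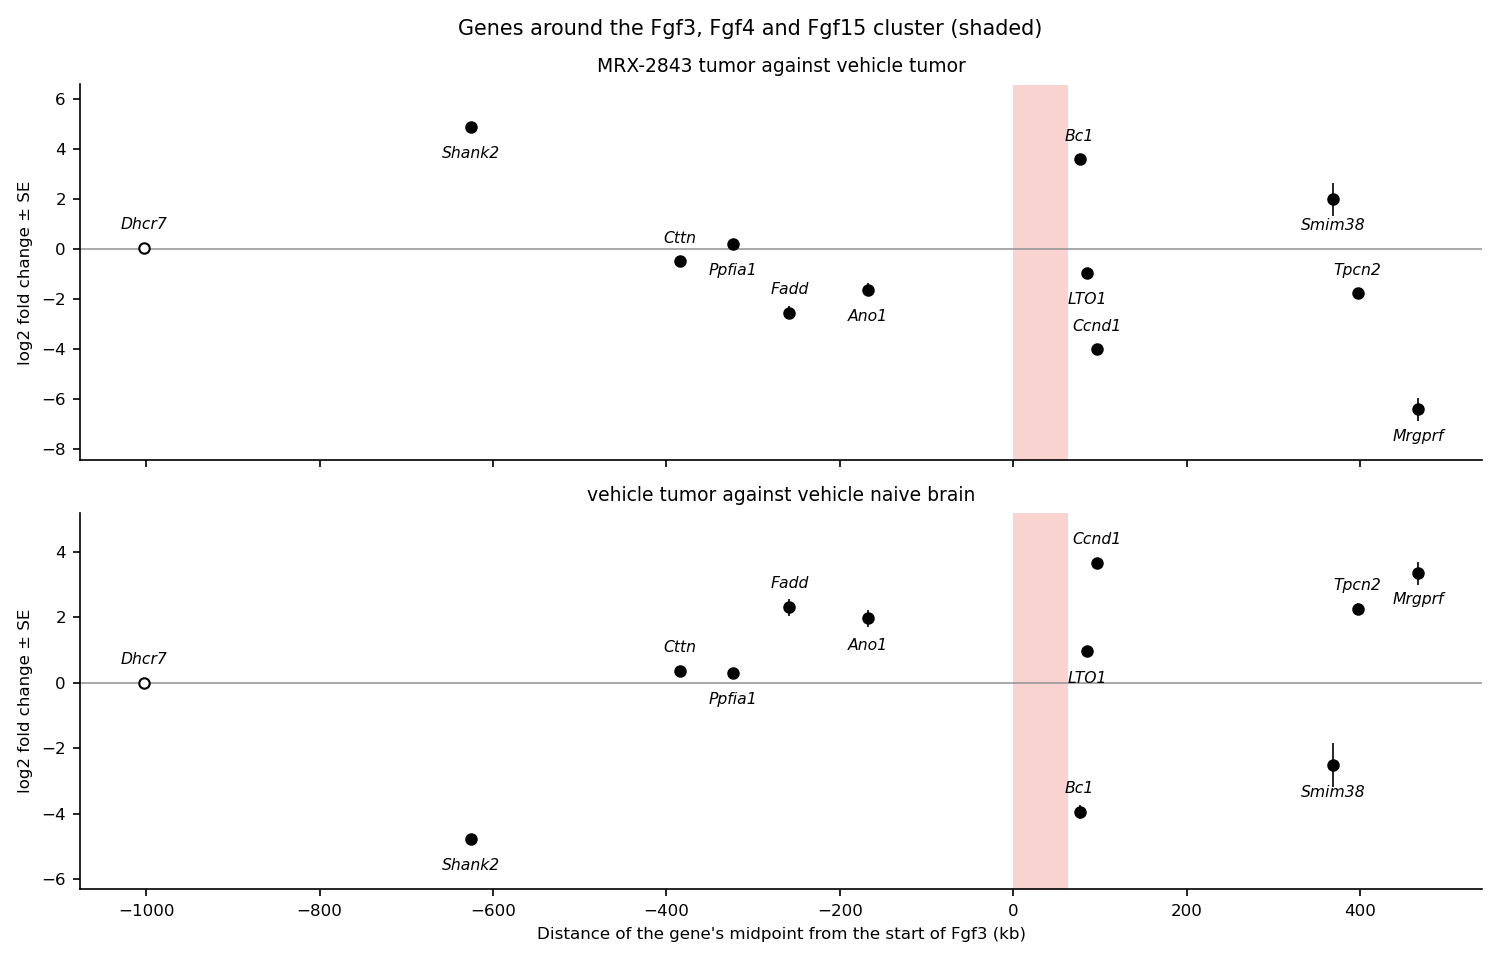
Log2 fold change with its standard error (y axis) of the genes near the Fgf3, Fgf4 and Fgf15 cluster against the distance of each gene's midpoint from the start of Fgf3 in kb (x axis), for MRX-2843 tumor against vehicle tumor (top) and vehicle tumor against vehicle naive brain (bottom). The shaded band is the cluster, filled points have an adjusted p under 0.05 and open points do not; Ccnd1 and Shank2 lie on opposite sides of 0 in both panels, and so do the neighbours Ccnd1 and Bc1.

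Other secreted FGF genes did not follow the cluster ligands. Of 13 on the list 9 passed the filter. In vehicle tumor against vehicle naive brain none of these was higher and 7 were lower, with a median of -3.11. Of all genes tested, 29.3% were higher and 30.8% lower there (median -0.03). Fgf9, a ligand made by neurons, had 1.02 and 0.567 CPM in vehicle tumor and 17.1 and 15.8 CPM in vehicle naive brain (-4.38 ± 0.23, edgeR adjusted p = 1.8e-10). Fgf22, a presynaptic organiser, fell by 4.03 ± 0.56 (adjusted p = 1.7e-05). Fgf5 had 0 counts in vehicle tumor and 357 in vehicle naive brain, at least 152-fold lower (adjusted p = 2.4e-05), and Fgf23 had 0 against 69, at least 29.4-fold lower (adjusted p = 0.00024). In MRX-2843 tumor against vehicle tumor 8 of the 9 were higher and none lower, with a median of 2.49. Of all genes tested, 30.6% were higher and 29.8% lower in that comparison (median 0.03). Fgf9 rose by 3.39 ± 0.22 (edgeR adjusted p = 3.7e-09) and Fgf22 by 3.80 ± 0.56 (adjusted p = 3.1e-05). Fgf5, with 146 counts against 0, was at least 73.2-fold higher and Fgf23, with 86 against 0, at least 43.1-fold higher (adjusted p = 7.4e-05 and 0.00013). Both medians of the 9 ligands are the same with Fgf5 and Fgf23 at their bounds.

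The 4 intracellular FGF homologous factors, which bind sodium channels of neurons and are not secreted, were all lower in vehicle tumor than in vehicle naive brain (median -3.82) and all higher in MRX-2843 tumor than in vehicle tumor (median 3.52). Over all genes tested, 30.8% were lower in vehicle tumor than in vehicle naive brain and 30.6% higher in MRX-2843 tumor than in vehicle tumor. Fgf12 had 50.3 and 46.3 CPM in MRX-2843 tumor and 3.84 and 3.18 CPM in vehicle tumor, against 95.6 and 96.5 CPM in vehicle naive brain. Its log2 fold change was 3.78 ± 0.10 in MRX-2843 tumor against vehicle tumor (edgeR adjusted p = 1e-13) and -4.78 ± 0.10 in vehicle tumor against vehicle naive brain (adjusted p = 8e-15). Fgf13 gave 3.88 ± 0.11 and -4.17 ± 0.11 in the same comparisons (adjusted p = 2e-13 and 8.6e-14). Fgf14 gave 3.26 ± 0.22 and -3.46 ± 0.22, and Fgf11 2.7 ± 0.14 and -2.28 ± 0.14 (adjusted p from 2e-10 to 5e-09). The neuron marker sum moved the same way in both comparisons, and its part was not tested.

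Of 10 co-receptors and modulators, 2 were higher and 3 lower in vehicle tumor against vehicle naive brain (median -0.71), beside 60.1% of all genes called. The 2 that rose were Sulf1 and Sulf2, extracellular sulfatases that trim the heparan sulfate to which FGFs bind. Sulf1 had 16.8 and 14.8 CPM in MRX-2843 tumor and 176 and 175 CPM in vehicle tumor, against 14.8 and 16.0 CPM in vehicle naive brain. Sulf2 had 94.9 and 96.1 CPM in MRX-2843 tumor and 435 and 445 CPM in vehicle tumor, against 82.2 and 86.5 CPM in vehicle naive brain. For both, the vehicle tumor libraries were above all others (Sulf1 3.51 ± 0.09 and Sulf2 2.38 ± 0.06 against vehicle naive brain, adjusted p = 2.8e-14 and 1.7e-14). In MRX-2843 tumor against vehicle tumor Sulf1 fell by 3.47 ± 0.09 and Sulf2 by 2.20 ± 0.06 (adjusted p = 3.8e-14 and 4.5e-14), 2 of the list being lower and 2 higher (median -0.06). Over all genes tested 60.4% were called there. Flrt3, a membrane partner of FGF receptors, fell by 1.75 ± 0.17 in vehicle tumor against vehicle naive brain (adjusted p = 3.1e-07) and rose by 1.71 ± 0.17 in MRX-2843 tumor against vehicle tumor (adjusted p = 4.5e-07). Flrt2 fell by 0.61 ± 0.11 in the first of these (adjusted p = 0.00017). Fgfbp3, a carrier of FGF ligands, rose by 0.81 ± 0.24 in MRX-2843 tumor against vehicle tumor (adjusted p = 0.0089), but not without MRX-2843 tumor library 1 (0.24).

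Genes induced by FGF and MAP kinase signalling, 12 of 13 of which passed the filter, split in vehicle tumor against vehicle naive brain into 6 higher and 4 lower (median 0.50), beside 29.3% and 30.8% of all genes. Spry1 and Spry4 encode Sprouty inhibitors. Spry1 had 6.52 and 7.42 CPM in MRX-2843 tumor and 72.4 and 79.1 CPM in vehicle tumor, against 6.76 and 5.97 CPM in vehicle naive brain. Spry4 had 4.68 and 6.78 CPM in MRX-2843 tumor and 78.4 and 77.3 CPM in vehicle tumor, against 6.402 and 6.704 CPM in vehicle naive brain. Vehicle tumor stood above the other groups for both, with 3.57 ± 0.14 for Spry1 and 3.57 ± 0.17 for Spry4 against vehicle naive brain (edgeR adjusted p = 5.4e-12 and 5.8e-11). The ETS factor Etv5 rose by 1.68 ± 0.09 (adjusted p = 3.8e-10) and Spred3, a brake on RAS signalling, fell by 1.92 ± 0.09 (adjusted p = 5.1e-11).

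In MRX-2843 tumor against vehicle tumor 7 of the 12 genes were lower and 3 higher (median -0.45), beside 29.8% and 30.6% of all genes. Spry1 fell by 3.44 ± 0.14, Spry4 by 3.76 ± 0.17 and Etv5 by 2.00 ± 0.09, and Spred3 rose by 1.97 ± 0.09 (adjusted p from 9.1e-12 to 6.3e-11). Against MRX-2843 naive brain, MRX-2843 tumor had 7 of the 12 higher and none lower (median 0.35, against 0 over all genes tested). Of all genes, 12.4% were higher and 11.9% lower there. Etv5 rose there by 0.78 ± 0.09, Spry2 by 0.61 ± 0.08, the ERK phosphatase gene Dusp6 by 0.76 ± 0.12 and Spred1 by 0.36 ± 0.06 (adjusted p from 2.5e-05 to 0.00067). In MRX-2843 naive brain against vehicle naive brain none was higher and 6 were lower (median -0.49, against 0.02), beside 9.78% and 11.7% of all genes. Etv5 fell by 1.09 ± 0.09, Dusp6 by 1.11 ± 0.12, Etv1 by 0.70 ± 0.07 and Spred2 by 0.77 ± 0.08 (adjusted p from 7.8e-07 to 8.2e-06). These 2 comparisons share the MRX-2843 naive libraries. Etv5 itself had 63.5 and 58.2 CPM in MRX-2843 tumor and 237 and 248 CPM in vehicle tumor, against 39.2 and 32.1 CPM in MRX-2843 naive brain and 70.2 and 81.1 CPM in vehicle naive brain. MRX-2843 tumor was thus between the naive groups for Etv5 and did not overlap either, as a description.

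Of 10 receptor adaptors, 4 were higher and 3 lower in vehicle tumor against vehicle naive brain (median 0.06), and likewise 4 and 3 in MRX-2843 tumor against vehicle tumor (median -0.04). Over all genes tested, 60.1 and 60.4% were called in these comparisons, with medians of -0.03 and 0.03. Shc1, which links receptors to RAS, had 20.4 and 16.9 CPM in MRX-2843 tumor and 80.5 and 81.4 CPM in vehicle tumor, against 18.5 and 17.8 CPM in vehicle naive brain. Its log2 fold change was -2.12 ± 0.11 in MRX-2843 tumor against vehicle tumor (adjusted p = 1.5e-10) and 2.16 ± 0.11 in vehicle tumor against vehicle naive brain (adjusted p = 1.1e-10). Frs2 and Frs3, the docking proteins of FGF receptors, rose by 0.65 ± 0.08 and 1.38 ± 0.15 in MRX-2843 tumor against vehicle tumor (adjusted p = 3.8e-06 and 1.5e-06), as did the phosphatase gene Ptpn11 by 0.65 ± 0.05 (adjusted p = 6.5e-08). In vehicle tumor against vehicle naive brain Frs3 fell by 1.73 ± 0.15, Grb2, which recruits SOS, by 0.46 ± 0.06, and the docking protein gene Gab1 rose by 0.95 ± 0.09 (adjusted p from 1.1e-07 to 5.2e-06).

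**Figure D4:**
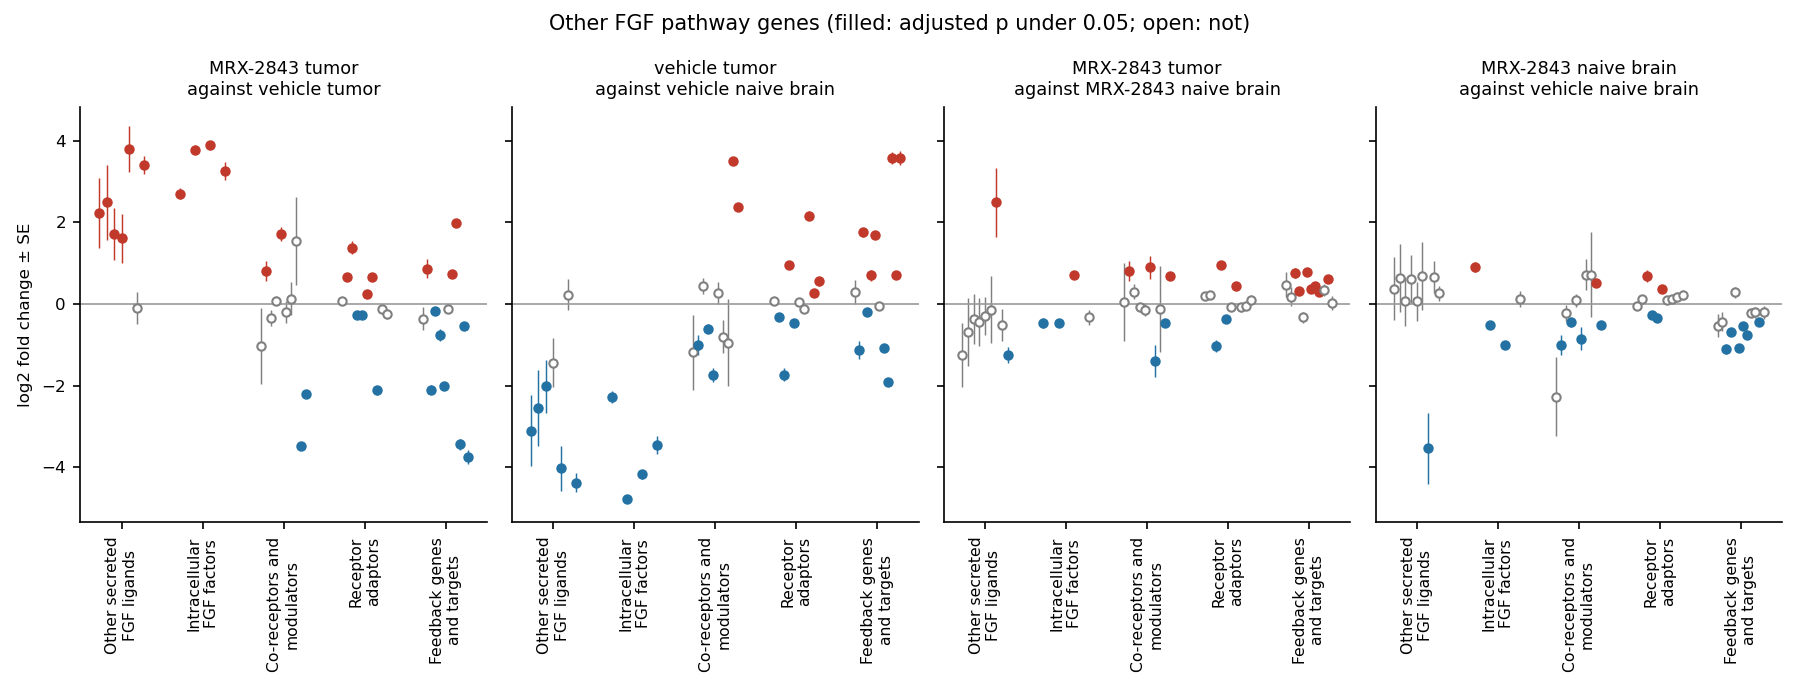
Log2 fold change with its standard error (y axis) of the other FGF pathway genes, by list (x axis), in MRX-2843 tumor against vehicle tumor, vehicle tumor against vehicle naive brain, MRX-2843 tumor against MRX-2843 naive brain and MRX-2843 naive brain against vehicle naive brain, from left to right. Filled points have an adjusted p under 0.05 (red higher, blue lower), open points do not, and genes without counts in a group compared are left out; the 4 intracellular factors are all higher in the first panel and all lower in the second.

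In MRX-2843 tumor against MRX-2843 naive brain, 1 other secreted ligand was higher (Fgf5, 2.49 ± 0.84, edgeR adjusted p = 0.048) and 1 lower (Fgf9, -1.25 ± 0.19, adjusted p = 0.00016) of 9. Of all genes, 12.4% were higher and 11.9% lower in this comparison. The Fgf5 call ended without any 1 library of the MRX-2843 tumor group (adjusted p = 0.078 and 0.07) or the vehicle naive group (0.061 and 0.059), and without MRX-2843 naive library 2 (0.17). Of intracellular factors Fgf13 rose by 0.71 ± 0.10, and Fgf12 and Fgf11 each fell by 0.47 (adjusted p from 7.3e-05 to 0.013). The Fgf11 call ended when library 2 of MRX-2843 tumor (adjusted p = 0.07) or of MRX-2843 naive brain (0.1) was left out. In MRX-2843 naive brain against vehicle naive brain, Fgf5 fell by 3.54 ± 0.86 (adjusted p = 0.0091) as the 1 called ligand of 9, Fgf13 fell by 1.00 ± 0.10 and Fgf11 rose by 0.90 ± 0.13 (adjusted p = 2.5e-06 and 0.00011). The test called 21.5% of all genes between the naive groups. Sulf2 rose by 0.69 ± 0.05 and Sulf1 fell by 0.47 ± 0.08 in MRX-2843 tumor against MRX-2843 naive brain (adjusted p = 5.1e-07 and 0.00081). In MRX-2843 naive brain against vehicle naive brain, which shares the MRX-2843 naive libraries, Sulf2 was at -0.51 ± 0.05 and Sulf1 at 0.51 ± 0.08 (adjusted p = 7.7e-06 and 4e-04).

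The interaction of treatment and tissue, the tumor against naive difference under MRX-2843 minus that under vehicle, contains the contrast that chose the 10 genes and was tested for other genes only. It was called for 51.6% of all genes, 26.3% positive and 25.3% negative. Of the 17 genes around the cluster, Gm26793, Gm39119 and Faddos included, 9 were negative and 2 positive (median -2.16, against 0.02 over all genes tested). Of the 9 named neighbours 8 were negative and 1 positive, and both of these tallies are a description. The negative call of Ppfia1 (adjusted p = 0.045) ended under 11 alternatives, among them DESeq2 (0.078) and leaving out any 1 library except vehicle tumor library 1 (0.055 to 0.24). The named neighbours included Ccnd1 at -3.32 ± 0.12 (edgeR adjusted p = 7.1e-12) and Shank2 at 5.29 ± 0.14 (adjusted p = 1.9e-13). All 4 intracellular factors were positive (median 3.72), as were 4 of 9 other secreted ligands with none negative. Feedback genes and targets split into 5 positive and 5 negative of 12, modulators into 3 and 2 of 10 and adaptors into 3 and 2 of 10.

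Over the 8 libraries, the genes whose log2(CPM + 1) was most like that of Fgf15 were Olfr56, Slfn1, Col4a6, P4hb and Ly6a (Pearson r 0.9996 to 0.9998), and 780 of 14003 genes compared had r above 0.99. Closest to Fgfr1 were Ckb, Ucp2, Tulp3, Tgfbi and Hadhb (r 0.9981 to 0.9992), with 282 genes above 0.99. Fgfr2 was most like Arhgef2, Fth1, Cpm, Enpp6 and Dip2b (r 0.9861 to 0.9916), with 3 genes above 0.99. For Fgfr3 the closest were Ddx39b, Nfatc2, Doc2b, Slc10a4 and Fam210b (r 0.9592 to 0.965), and no gene was above 0.99. These 8 points are 4 groups of 2, and for Fgf15 and Fgfr1 the vehicle tumor group stands apart from the rest.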

How the data were processed

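The authors deposited 1 table of raw read counts per gene for the 8 libraries. The submitters' processing notes list mm10 and hg38 as builds and, as tools, featureCounts, Subread, SAMtools and STAR 2.7.7a; the role of each and the strand setting are not given in the sources used here. Of 55414 gene IDs, 52133 (94.1%) matched GENCODE M21 once the version number was removed.

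Counts were scaled by TMM and fitted with edgeR 4.0.16 in R 4.3.3 by the quasi-likelihood test, with 4 group means and 4 residual degrees of freedom, after filterByExpr with a minimum count of 10, which kept 24356 genes. P-values were Benjamini-Hochberg adjusted over these genes, with 0.05 as the threshold, and SE is of the log2 fold change. The biological coefficient of variation was 21%. The pipeline was tested on simulated data. CPM per kb uses the summed exon length. Totals ran from 51150569 to 112938462 counts per library. Alternatives were DESeq2 1.42.0, other scalings and filters, fits on fewer groups, the replicate block and leaving out libraries.

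The members and lists were chosen with earlier results of these data known. Of each list, the up to 4 genes with the smallest adjusted p in a comparison are named, with all named neighbours of the cluster and, as most like a member, the 5 genes of highest Pearson r.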

Additional observations from a re-analysis of the deposited data

Results flagged for a closer look

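For 6 of the 10 FGF genes, the log2 difference of MRX-2843 tumor from MRX-2843 naive brain lay on the opposite side of 0 from the same difference under vehicle, in all libraries: Fgf1 at -0.25, Fgf3 at -0.61, Fgf15 at -6.41, Fgfr1 at -0.38, Fgfr2 at 0.78 and Fgfr3 at -0.13. The Fgf15 value depends on the prior count, since MRX-2843 tumor had no counts, and the counts give at least 5.48-fold lower. The difference between the treatments was not tested for these genes, since the vehicle contrast chose them, and the libraries labelled MRX-2843 tumor were close to naive brain over all genes. Fgf1, Fgf3 and Fgfr3 did not pass the main test between MRX-2843 tumor and MRX-2843 naive brain. The share of all genes with such opposite sides was not counted, so the 6 are a description only.

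For other genes the interaction of treatment and tissue passed edgeR's test, as did 51.6% of all genes. Its log2 values for secreted ligands were 3.13 for Fgf9, 3.74 for Fgf22, 13.06 for Fgf5 and 8.07 for Fgf23, those of Fgf5 and Fgf23 depending on the prior count because vehicle tumor had no counts. The intracellular factors had 4.88 for Fgf13, 4.30 for Fgf12, 3.14 for Fgf14 and 1.80 for Fgf11. Among modulators it was -3.98 for Sulf1, -1.69 for Sulf2, 1.61 for Flrt3 and 1.82 for Fgfbp3. Adaptors had -2.24 for Shc1, 0.56 for Ptpn11, 0.54 for Frs2 and 0.70 for Frs3. Feedback genes had -3.23 for Spry1, -3.55 for Spry4, 2.20 for Spred3 and 1.51 for Spred2.

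Around the cluster the interaction was 5.29 for Shank2, 3.05 for Bc1, -0.63 for Cttn, -0.28 for Ppfia1, -2.45 for Fadd, -2.64 for Ano1, -1.03 for LTO1, -3.32 for Ccnd1, -2.16 for Tpcn2, -6.13 for Mrgprf and -6.23 for Gm26793. Gm26793 overlaps Fgf15 and passed the filter through vehicle tumor, so its value is a description. The call of Ppfia1 ended under 11 alternatives, DESeq2 among them (adjusted p = 0.078). Groups of 2 libraries allow no check for a single outlying sample.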

How the results depend on the processing

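Of the 13 counts of called genes, each kept within 1.5 times its value under every alternative run except 1: 2 of the 10 FGF genes, in place of 4, differed between MRX-2843 tumor and MRX-2843 naive brain with only the 2 groups compared. The 4 include Fgf15, which entered the fit only through vehicle tumor and is given above without a test. The count of FGF genes between the naive groups holds Fgf15 too, and Fgf3. With each library left out in turn, called genes numbered 13098 to 14643 in vehicle tumor against vehicle naive brain, 13389 to 14767 in MRX-2843 tumor against vehicle tumor, 4666 to 6390 in MRX-2843 tumor against MRX-2843 naive brain, 3835 to 5684 in MRX-2843 naive brain against vehicle naive brain and 11582 to 12064 for the interaction. Under the other alternatives, called FGF genes numbered 6 to 7 in MRX-2843 tumor against vehicle tumor, where Fgf3, Fgf4 and Fgf15 are not counted. Library totals in place of TMM turned the sign in MRX-2843 tumor against vehicle tumor for Fgfr3 (-0.15) and Ppfia1 (-0.02), and moved the median of all genes by 0.25 in vehicle tumor against vehicle naive brain. Without vehicle naive library 1, the log2 fold change of Fgf3 in that comparison was 10.82.

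Same-numbered libraries did not deviate together (r from -0.09 to 0.069 over 12636 genes), so they share only a number. With the replicate block, genes called numbered 14120 in vehicle tumor against vehicle naive brain, 14226 in MRX-2843 tumor against vehicle tumor, 5759 in MRX-2843 tumor against MRX-2843 naive brain, 5067 in MRX-2843 naive brain against vehicle naive brain and 12113 for the interaction of treatment and tissue, and the calls of Fgfrl1 in MRX-2843 tumor against MRX-2843 naive brain (adjusted p = 0.065), Fgf1 between the naive groups (0.057) and of Ppfia1 in the interaction (0.055) were not made. Fgf3 was called with the block in MRX-2843 tumor against MRX-2843 naive brain (-0.62, adjusted p = 0.043). Depth limits Fgf4, Fgf15 and Fgfr4 outside vehicle tumor.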
